A study of Mus musculus with 6 samples.

Results

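Imprinted genes are expressed mainly from 1 parental copy. The 10 described here, which control growth or are abundant in neurons, were selected by symbol from a table of 47794 genes: H19, Igf2, Dlk1, Meg3, Rian, Peg3, Peg10, Plagl1, Cdkn1c and Ndn. All 10 were found, and 9 had a mean scaled read count of at least 10 over both groups, the exception being Dlk1. Bulk RNA of the primary somatosensory cortex was sequenced from C57BL/6 mice aged 14 days. The 3 overexpression libraries (β-cat Ovp, here Ovp) came from mice with a floxed exon 3 of the β-catenin gene, β-cat lox(ex3), together with Nex-Cre, and the 3 control libraries (Ctrl) from mice with the floxed allele alone, so both groups carried β-cat lox(ex3). Loss of that exon stabilises the β-catenin protein. Nex-Cre recombines in excitatory neurons of the forebrain, so interneurons, glia, vessels and meninges in the same tissue kept the allele unrecombined. In bulk tissue, fewer cells of a type and less RNA per cell cannot be told apart.

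At imprinted loci a methylation mark set in the egg or the sperm leads to expression mainly from 1 copy, and the genes lie in domains under a shared control region. Paternally expressed genes such as Igf2 tend to favour growth, and maternally expressed ones such as Cdkn1c and H19 tend to restrain it. In mouse brain Igf2 is made chiefly in the meninges, the choroid plexus and vessels, whereas Meg3, Rian, Peg3 and Ndn are abundant in neurons. Of the 10 genes, H19, Meg3, Rian and Cdkn1c are known as maternally expressed, and Igf2, Dlk1, Peg3, Peg10, Plagl1 and Ndn as paternally expressed. Parental origin is background here: the reads were not split by allele. These labels need not hold in every tissue or cell type, and that includes the sources of Igf2 named above.

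Several of these transcripts also carry microRNAs, which are cut from the host RNA and pair with targets through a seed at bases 2 to 8. RefSeq (GRCm38.p6) places 7 microRNA genes on the same strand within 4 of the 10 genes, H19, Igf2, Meg3 and Rian. A further 14 lie within Mirg, a noncoding RNA gene of the same domain as Meg3 and Rian. The sequences below, 5′ to 3′ with the seed in capitals, are the mature sequences within H19, Igf2 and Meg3, an arm each of hairpins in Rian and Mirg, and the pair that shares a seed.
mmu-miR-675-5p: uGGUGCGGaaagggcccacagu
mmu-miR-675-3p: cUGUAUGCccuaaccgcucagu
mmu-miR-483-5p: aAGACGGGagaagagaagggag
mmu-miR-483-3p: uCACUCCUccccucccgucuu
mmu-miR-1906: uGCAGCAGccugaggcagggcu
mmu-miR-770-5p: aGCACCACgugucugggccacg
mmu-miR-770-3p: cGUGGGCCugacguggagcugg
mmu-miR-370-3p: gCCUGCUGggguggaaccuggu
mmu-miR-134-5p: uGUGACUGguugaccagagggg
mmu-miR-453: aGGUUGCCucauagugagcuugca
mmu-miR-496a-5p: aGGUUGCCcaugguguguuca
In the GENCODE M21 annotation miR-675 lies in an exon of H19 (3p arm at chr7:142577078-142577099, minus strand) and miR-483 in an intron of Igf2 (3p arm at chr7:142654932-142654952, minus strand). Both miR-1906 (chr12:109544588-109544609, plus strand) and miR-770 (5p arm at chr12:109563710-109563731, plus strand) are exonic in Meg3, and that of miR-370 intronic in Rian (3p arm at chr12:109618305-109618326, plus strand). Exonic in Mirg is miR-134 (5p arm at chr12:109734145-109734166, plus strand), known in rodent neurons for limiting dendritic spine growth. Among the 39 mature sequences of these 5 hosts there were 38 distinct seeds, the only shared one being that of miR-453 and miR-496a-5p, both intronic in Mirg. The microRNA genes have rows of their own in the table, but these count reads of long RNA and not mature microRNA. Of the 7 such rows within members, 6 were listed at 0 in both groups, and that of miR-483 was at 0 in Ovp and 0.368 in Ctrl cortex. Of 14 rows within Mirg, 6 were above 0. That of miR-541, at 12.8 in Ovp and 7.46 in Ctrl cortex, was the highest in Ovp cortex, and that of miR-453, at 10.9 in Ovp and 9.64 in Ctrl cortex, the highest in Ctrl cortex.

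For each gene the table gives a mean scaled read count in either group. The means summed to 18602579 over all genes in Ovp and 19016749 in Ctrl cortex, and carry no spread of their own. For genes with low or moderate means, values of the 3 libraries of each group were recovered from the means, and the libraries are called A, B and C, because their replicate numbers are unknown. Both groups were recovered for H19, Cdkn1c, Peg10 and Dlk1, and control cortex alone for Plagl1. For Igf2, Meg3, Rian, Peg3 and Ndn only the group means are known. The labels do not say that each library came from a separate animal, so any p-value reflects no more than the spread between the libraries at hand, which may be technical. Ctnnb1, the β-catenin gene, had 6391 scaled reads in Ovp cortex and 7574 in Ctrl cortex, summed over its exons, a log2 ratio of -0.25. The authors' deposited table lists it at p = 0.0304 before adjustment and 1 after it. The level of the whole transcript checks neither the loss of exon 3 nor the protein.

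The 10 genes differed widely in level. Per kilobase of exon, Meg3 stood at 6680 scaled reads in Ovp and 5761 in Ctrl cortex. Its mean ranked 2 of all genes in Ovp and 3 in Ctrl cortex, at 0.65% and 0.548% of the summed means. Rian, the host of many small nucleolar RNAs, had 1015 scaled reads per kilobase in Ovp and 936 in Ctrl cortex. Ndn, whose protein necdin promotes neuronal survival and differentiation, had 923 per kilobase in Ovp and 913 in Ctrl cortex. Peg3, which encodes a zinc finger protein, followed with 549 and 521. Below them came Igf2, an insulin-like growth factor gene, with 321 per kilobase in Ovp and 359.5 in Ctrl cortex. Plagl1, a zinc finger transcription factor gene, had 74.0 per kilobase in Ovp and 74.7 in Ctrl cortex. Cdkn1c, which encodes the cyclin-dependent kinase inhibitor p57, had 55.9 in Ovp and 52.3 in Ctrl cortex, and Peg10, derived from a retrotransposon, 55.8 and 59.3. Cdkn1c and Peg10 traded places between the groups and lay within the spread of their libraries in overexpression cortex, and no other gene of the 10 changed its rank. The noncoding RNA H19 had 17.4 per kilobase in Ovp and 10.5 in Ctrl cortex, and Dlk1, a transmembrane relative of Notch ligands, 1.22 and 0.616. The Dlk1 values rest on 1 to 9 reads per library.

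**Figure D1:**
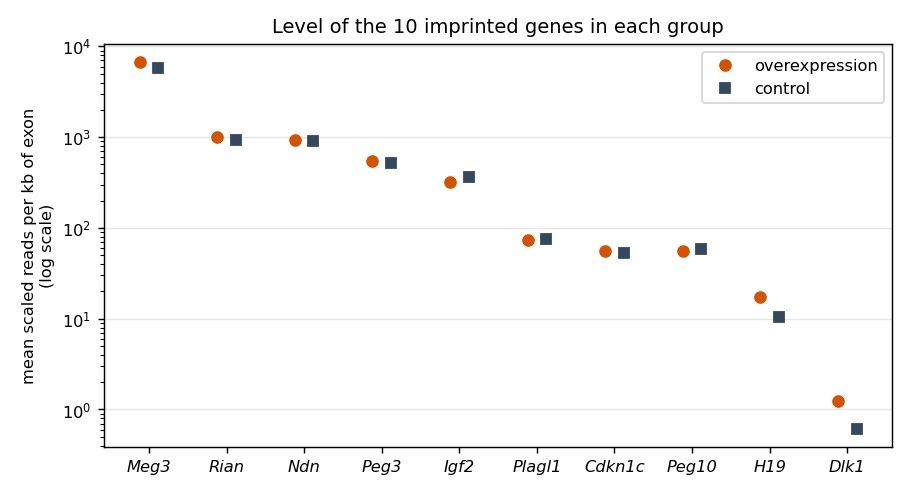
Mean scaled reads per kilobase of exon (log scale) of the 10 imprinted genes in overexpression (circles) and control cortex (squares), ordered by level. Levels ran between 6680 for Meg3 and 1.22 for Dlk1 in overexpression cortex, and the groups lay close together for all genes but H19 and Dlk1.

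The comparison of overexpression with control cortex asked whether stabilised β-catenin altered the cortical transcriptome. The members were proposed with these group means in view, so what follows describes the contrast. None of the 10 genes passed an adjusted p under 0.05 in the authors' deposited table, where 0% of 30152 tested genes did. The adjusted p was 1 for each of the 10 there. By its unadjusted value, p = 0.0243 in the authors' deposited table, H19 alone was under 0.05, as did 0.534% of all tested genes, 0.328% with the higher mean in overexpression cortex. All 4 maternally expressed members had a higher mean in overexpression cortex, while the 6 paternally expressed ones split into 3 higher and 3 lower. Across all genes averaging 10 or more, 46.8% had a higher mean in overexpression cortex, and 58.2% did when each group's means were divided by their sum. With that division the paternally expressed members split into 4 higher and 2 lower, since Plagl1 was at -0.01 as deposited. Among the maternally expressed members Cdkn1c turned lower when overexpression library B was left out. The median log2 ratio of overexpression over control was 0.17 for the maternally expressed members and -0.000114 for the paternally expressed ones. The median was -0.0089 for all 17095 genes averaging 10 or more. That of the maternally expressed members is set by Meg3 and Rian, which lie in the same domain. Other genes labelled maternally expressed in a wider list, given below, had a median of -0.00439. Whether that label holds for them in cortex was not checked. Of the 9 members averaging 10 or more, 1, H19, had group means at least 1.2-fold apart, beside 13% of all genes at that level. Dlk1, below that level, also had means over 1.2-fold apart.

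**Figure D2:**
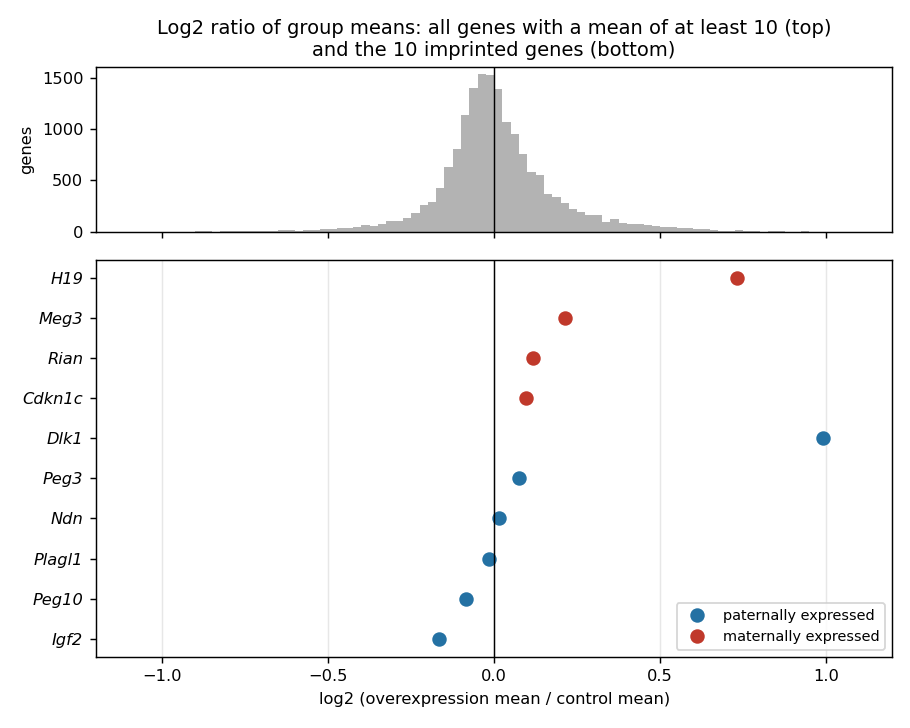
Log2 ratio of group means, overexpression over control, for all genes averaging 10 or more (top, number of genes in each bin between -1.2 and 1.2) and for the 10 imprinted genes (bottom, red for maternally and blue for paternally expressed). The 4 maternally expressed genes all lay above 0, between 0.10 and 0.73, and the paternally expressed ones lay on both sides of 0, between -0.16 and 0.99.

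Among the growth restrainers, H19 had the largest ratio of the 9 members averaging 10 or more. Its recovered values were 34.2, 49.9 and 44.5 in overexpression libraries A, B and C, and 17.3, 28.1 and 32.0 in control libraries A, B and C. The lowest overexpression library thus lay just above the highest control library, and the groups did not overlap. These values stand for 42, 53 and 43 reads in overexpression and 17, 26 and 29 reads in control libraries. The mean was 42.9 ± 7.95 in Ovp and 25.8 ± 7.60 in Ctrl cortex (SD, n = 3 each), a log2 ratio of 0.73. A fit with limma across 10308 recovered genes gave a log2 difference of 0.74 on the log2(value + 1) scale, with a 95% interval of 0.12 to 1.35 and an adjusted p of 0.9995, and it called 0% of those genes. Its interval lay above 0, and before adjustment 1.42% of the recovered genes were under 0.05 and higher in overexpression cortex. The interval took in 0 when overexpression library B (-0.08 to 1.33), overexpression library C (-0.03 to 1.44) or control library A (-0.11 to 1.08) was left out. Groups in which all overexpression libraries lay above all control libraries occurred in 4.3% of the recovered genes, and the reverse in 2.72%, which held no member. Control library A was the low one, and without it the log2 ratio was 0.51.

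Cdkn1c, which holds back the cell cycle, did not separate the groups. Its values were 122, 131 and 89.0 in overexpression libraries A, B and C, and 106, 92.9 and 121 in control libraries A, B and C. Overexpression library C was the lowest of all 6, and the groups overlapped throughout. The mean was 114 ± 22.1 in Ovp and 107 ± 14.2 in Ctrl cortex (SD, n = 3 each), a log2 ratio of 0.10. The limma interval of the log2 difference, on the log2(value + 1) scale, ran between -0.32 and 0.49. Leaving out single libraries moved the log2 ratio between -0.01, without overexpression library B, and 0.25, without overexpression library C.

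**Figure D3:**
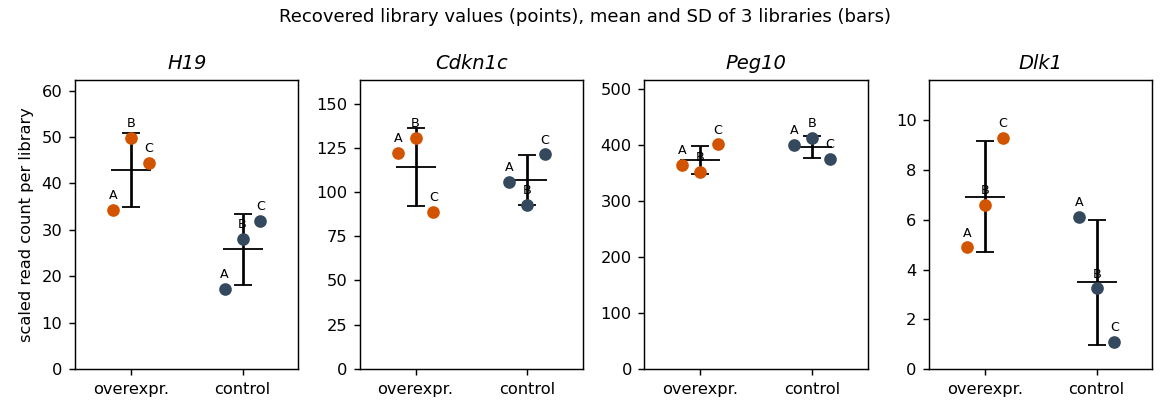
Scaled read counts of H19, Cdkn1c, Peg10 and Dlk1 in each recovered library (points, labelled A, B and C), with the mean and SD of the 3 libraries of each group (bars). The groups are apart for H19, with 34.2 as the lowest overexpression and 32.0 as the highest control value, and they overlap for the other genes.

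Igf2, the growth factor whose gene neighbours H19, had the opposite direction to it. Its mean was 1835 in Ovp and 2057.5 in Ctrl cortex, a log2 ratio of -0.16 with p = 0.678 in the authors' deposited table. Per kilobase of exon, Igf2 stood 18.4-fold above H19 in overexpression and 34.3-fold above it in control cortex. Igf2os, a noncoding RNA antisense to Igf2, had a mean count of 9.33 in Ovp and 7.46 in Ctrl cortex, and Ins2, an insulin gene next to Igf2, was listed at 0 in both groups. The strand setting of the counting is not given in the sources used here, so reads of Igf2 and Igf2os cannot be told apart.

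Because Igf2 and H19 are expressed by cells of meninges and vessels, markers of such cells are given beside them. Of 12 meningeal fibroblast markers, 4 had a higher and 8 a lower mean in overexpression cortex, with Col1a2 at 1010 and 1030 and Col1a1 at 793 and 789 in overexpression and control cortex. The 9 of them recovered in both groups summed to 876, 1535 and 2245 in overexpression libraries A, B and C, and to 1439, 1868 and 1652 in control libraries A, B and C. Overexpression library A was thus the lowest and C the highest of all 6. The 12 choroid plexus markers, 2 higher and 10 lower in overexpression cortex and none at 0 in both groups, summed to between 280 and 335 in Ovp and between 228 and 974 in Ctrl libraries. The top of that range was control library B, in which Ttr, a thyroid hormone carrier gene, stood at 713. The mean of Ttr was 122 in Ovp and 290 in Ctrl cortex, and that of Kl 58.0 and 63.6. Of 8 pericyte and smooth muscle markers, 2 were higher and 6 lower, with Rgs5 at 4191 in Ovp and 4207 in Ctrl cortex and Vtn at 1171 and 1237. Of 8 endothelial markers 4 were higher and 4 lower, with Flt1 at 1235 and 1153 and Kdr at 799 and 793. Control library A, lowest of all 6 in H19, had the lowest meningeal sum of the 3 control libraries, at 1439, while overexpression library A, at 876, was lower still. The part of these cells in the Igf2 and H19 values was not tested.

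**Figure D4:**
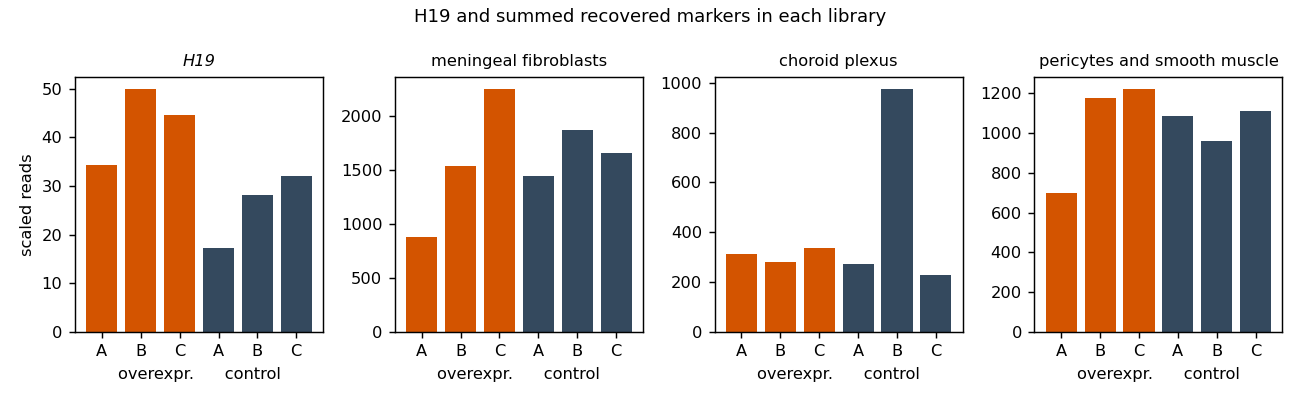
Scaled reads of H19 and of summed recovered markers of meningeal fibroblasts (9 genes), choroid plexus (12 genes) and pericytes and smooth muscle (5 genes) in each library, overexpression left of control; bars start at 0. H19 ran highest in overexpression library B, the meningeal sum in overexpression library C at 2245, and the choroid plexus sum in control library B at 974.

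The Dlk1-Dio3 domain held 3 of the 10 genes. It was the domain in which every listed gene, 6 of 6, had a higher mean in overexpression cortex as deposited. Dividing means by their sum added 0.032 to every log2 ratio, and centring on the median of genes averaging 100 or more added 0.017. Neither scaling could therefore turn a higher gene lower, and neither shows whether the count rests on single libraries. The background share of genes with a higher mean was 46.8% as deposited, 58.2% after the division and 53.0% after centring. That share counts single genes, while the 6 lie in the same domain, with Meg3, Rian and Mirg transcribed in the same direction. The 6 are therefore not separate observations. None of the 6 passed an adjusted p under 0.05. Meg3, a noncoding RNA made from the maternal copy, had a mean count of 120828 in Ovp and 104212 in Ctrl cortex. Its log2 ratio was 0.21, with p = 0.237 in the authors' deposited table. Rian, transcribed downstream in the same direction, had 18513 in Ovp and 17073 in Ctrl cortex, a log2 ratio of 0.12. Mirg, further downstream, had 628 in Ovp and 519 in Ctrl cortex, a log2 ratio of 0.28 (p = 0.123, the authors' deposited table). Its control libraries A, B and C were recovered at 388, 540 and 629, with library A again the low one. Such a spread of 122 (SD, n = 3) exceeded the difference between the Mirg group means.

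The protein-coding genes of the domain are expressed from the paternal copy, and they were lower per kilobase than the noncoding RNAs, with Rtl1 at 35.6 in Ovp and 32.6 in Ctrl cortex and Mirg at 86.2 and 71.2. Dlk1 was at 4.89, 6.59 and 9.31 in overexpression libraries A, B and C, and at 6.11, 3.24 and 1.10 in control libraries A, B and C. Those values stand for 6, 7 and 9 reads in overexpression and 6, 3 and 1 reads in control libraries, and the groups overlapped. Its mean was 6.93 ± 2.23 in Ovp and 3.48 ± 2.51 in Ctrl cortex (SD, n = 3 each), a log2 ratio of 0.99. Dlk1 was below the level of the main limma fit. A limma fit of genes averaging 1 or more gave it a 95% interval of -0.18 to 2.09, which took in 0. Without 1 library the Dlk1 ratio ranged between 0.57, without control library C, and 1.67, without control library A. Rtl1, a retrotransposon-derived gene, had 226 ± 26.7 in Ovp and 207 ± 35.8 in Ctrl cortex (SD, n = 3 each). Its lowest library was control A, at 175. With the strand setting of the counting not given, any antisense reads over Rtl1 cannot be told apart from its own. Dio3, which encodes a deiodinase that inactivates thyroid hormone, had 12.1 ± 4.51 in Ovp and 10.6 ± 3.75 in Ctrl cortex (SD, n = 3 each). Its values were 12.2, 7.53 and 16.6 in overexpression libraries A, B and C, and 11.2, 14.0 and 6.62 in control libraries A, B and C. The groups overlapped for Dio3 and for Rtl1.

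Markers of neuron classes and of neighbouring regions are given beside this domain, because its Meg3 and Rian are known as abundant in neurons. All 8 striatal markers had a higher mean in overexpression cortex, with a median log2 ratio of 0.30, among them Ppp1r1b, which encodes the phosphatase inhibitor DARPP-32, at 1502 in Ovp and 1177 in Ctrl cortex. The 3 of them recovered in both groups summed to 654, 780 and 902 in overexpression libraries A, B and C, and to 552, 689 and 850 in control libraries A, B and C, so the groups overlapped and control library A was again the lowest. The 8 hypothalamic markers, 5 higher and 3 lower, summed to between 31.0 and 49.7 in Ovp and between 31.6 and 35.6 in Ctrl libraries. These sums were mostly the neuropeptide genes Pomc, at 23.3 in Ovp and 13.1 in Ctrl cortex, and Agrp, at 13.2 and 17.8. The highest mean of any other was 1.43, for Hcrt in Ctrl cortex, so the split of 5 and 3 rests mostly on a few reads. Of 8 excitatory neuron markers 1 was higher and 7 lower, with the glutamate transporter gene Slc17a7 at 30449 in Ovp and 31689 in Ctrl cortex and Cux2 at 3603 and 3902. One of them, Neurod6, was under 0.05 before adjustment in the authors' deposited table (p = 5.04e-05, adjusted p = 0.76), at 1199 in Ovp and 1942 in Ctrl cortex. It is the gene into which Nex-Cre is inserted and was singled out after its values were seen. Of 8 interneuron markers 1 was higher and 7 lower, with Gad1 at 3780 in Ovp and 4149 in Ctrl cortex and Gad2, like it an enzyme gene of GABA synthesis, at 3646 and 3976. The defining markers of cortical neurons were thus present in both groups, and the part of regional or cellular make-up in the Dlk1-Dio3 values was not tested.

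**Figure D5:**
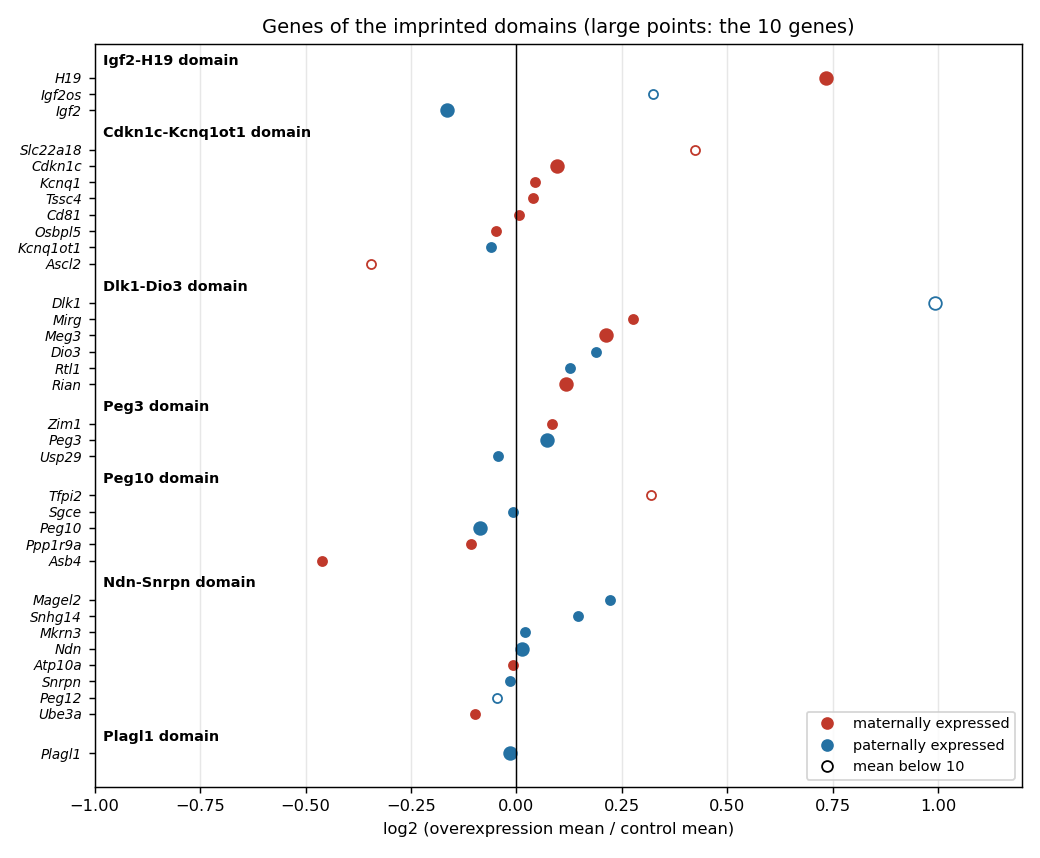
Log2 ratio of group means, overexpression over control, for the genes of 7 imprinted domains detected in both groups (red for maternally, blue for paternally expressed; open points have a mean below 10; large points are the 10 genes). All 6 genes of the Dlk1-Dio3 domain lay above 0, between 0.12 and 0.99, and the genes of the other domains with more than 1 gene lay on both sides of 0.

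Ndn and Peg3, abundant in neurons and outside that domain, had nearly equal means in both groups. Ndn was at 3408 in Ovp and 3374 in Ctrl cortex, a log2 ratio of 0.01, and Magel2, its neighbour and relative in the MAGE family, at 35.9 ± 8.91 and 30.8 ± 8.11 (SD, n = 3 each). Snrpn, a spliceosome gene of the same domain, was at 2873 in Ovp and 2902 in Ctrl cortex, and Snurf, encoded by the same transcript, was listed at 0. Snhg14, a long noncoding RNA that runs antisense into Ube3a, was at 2574 in Ovp and 2327 in Ctrl cortex. Ube3a, a ubiquitin ligase gene expressed from the maternal copy in neurons, was at 3487 in Ovp and 3734 in Ctrl cortex. Where Snhg14 and Ube3a overlap their reads cannot be told apart, as the strand setting is not given. Of the 8 genes of this domain detected in both groups, 4 were higher and 4 lower in overexpression cortex. The others were Mkrn3 at 169 in Ovp and 167 in Ctrl cortex, Atp10a at 173 and 174, and Peg12 at 9.33 and 9.63.

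Peg3 had a mean count of 7310 in Ovp and 6946 in Ctrl cortex, a log2 ratio of 0.07 (p = 0.484, the authors' deposited table). Its neighbours were as close, with Usp29, which shares its promoter region, at 501 in Ovp and 516 in Ctrl cortex and Zim1 at 73.2 ± 26.7 and 69.0 ± 11.3 (SD, n = 3 each).

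Peg10 had the narrowest range of the 4 genes recovered in both groups, and also the highest mean. Its overexpression values were accepted because each lay within 2-fold of their mean, so that rule partly set the narrow range. Its values were 364, 352 and 400.4 in overexpression libraries A, B and C, and 399, 413 and 374 in control libraries A, B and C. The groups overlapped, and the highest library was 1.17 times the lowest. The mean was 372 ± 25.2 in Ovp and 395 ± 19.7 in Ctrl cortex (SD, n = 3 each), and the limma interval of the log2 difference, on the log2(value + 1) scale, was -0.30 to 0.13. For overexpression cortex 3 combinations of reads gave the deposited mean, and the one used was the only one with every library within 2-fold of it. Sgce, a sarcoglycan gene that shares the Peg10 promoter, was at 411 ± 10.1 in Ovp and 413 ± 8.23 in Ctrl cortex (SD, n = 3 each). The overexpression values of Sgce were accepted by the same 2-fold rule, which may have narrowed their SD. Of the maternally expressed genes near Peg10, Ppp1r9a was at 5803 in Ovp and 6255 in Ctrl cortex, Asb4 at 13.5 and 18.6, Tfpi2 at 3.06 and 2.45, and Calcr at 0 and 0.339.

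Plagl1 had a mean count of 578 in Ovp and 584 in Ctrl cortex. Its control libraries A, B and C were recovered at 577, 578 and 598. For overexpression cortex 2 combinations with every library within 2-fold of the mean remained, so no library values are given.

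In the domain of Cdkn1c, the noncoding RNA Kcnq1ot1, made from the paternal copy, was at 2007 in Ovp and 2092 in Ctrl cortex. It runs antisense to Kcnq1, a potassium channel gene, which was at 30.4 in Ovp and 29.5 in Ctrl cortex, and reads of the overlapping genes cannot be told apart. The tetraspanin gene Cd81 was at 3751 in Ovp and 3735.5 in Ctrl cortex, Osbpl5 at 521 and 539, and Tssc4 at 415 ± 7.66 and 404 ± 28.8 (SD, n = 3 each). The overexpression values of Tssc4, like those of Peg10, were accepted by the 2-fold rule, which may have narrowed their SD. Slc22a18, Ascl2 and Phlda2 had means below 10 in both groups.

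Over a wider list of 64 imprinted genes, of which 62 were detected, 0 passed an adjusted p under 0.05 in the authors' deposited table and only H19 was under 0.05 before adjustment. Of the 60 detected in both groups, 32 were higher and 28 lower in overexpression cortex, with a median log2 ratio of 0.0085. Labels of parental origin in this list were not checked for cortex, and some of these genes may be imprinted only in other tissues. Of the genes labelled maternally expressed, other than the members, 10 were higher and 12 lower, with a median of -0.00439. Of the other genes labelled paternally expressed 12 were higher and 12 lower, with a median of 0.00695.

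Promoter windows of 300 bases, 250 before and 50 after a start site, were searched on both strands for CTTTGAA and CTTTGAT, letters bound by the TCF/LEF partners of β-catenin. RefSeq windows were at hand for 7 of the 10 genes, 11 windows in all, while H19, Peg10 and Cdkn1c had none and were not searched. Of the 11 windows 0 held a match, beside 8.65% of all 32851 windows, and so few windows cannot be told apart from that share. No match says only that these letters are not in these windows.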

How the data were processed

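Per the labels' protocols, total RNA from primary somatosensory cortex, 3 libraries per group, was extracted with Trizol and made into Illumina TruSeq RNA libraries. The submitters' processing notes name Bowtie2 2.0.6 with TopHat2 2.0.9. Not given in the sources used here: build, annotation, counter, strand setting and test. The authors deposited 1 signal value per gene and group, a mean of scaled read counts as read from the values, with a fold change on the log2 scale. The deposited p-value and adjusted p-value are the authors' own. The log2 ratios printed here are of the overexpression over the control mean. Symbols were found for 46488 of 47069 Ensembl IDs.

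The worth of 1 read in each library was read from the lowest means, and means up to 1000 were matched to whole reads of 3 libraries within their 10 significant digits. Exactly 1 combination matched all 23575 control means and 80.1% of 24203 overexpression means; where several did, 1 with every library within 2-fold of the mean was accepted. Scaling factors were 1.23, 1.06 and 0.966 in overexpression and 0.982, 0.926 and 0.907 in control libraries A, B and C. Both groups were recovered for 10308 of 17095 genes averaging 10 or more. These were fitted with limma 3.58.1 in R 4.3.3 on log2(value + 1) with a mean-variance trend and Benjamini-Hochberg adjustment over all of them. In data simulated with a small fixed spread between libraries, recovered combinations were right in 100% of cases. With so little spread the true values nearly always meet the 2-fold rule, so that rule was hardly tested. limma, in the comparison of overexpression with control simulated on 10308 genes, called 41 of 50 genes changed 2-fold and 9 of 50 changed 1.5-fold. It made 5 false calls. The simulated spread was fixed and not estimated from these libraries, so such rates need not hold for them. Exon lengths are from GENCODE M21 and sequences from RefSeq GRCm38.p6, which may differ from the annotation the authors counted on.

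The members and lists were chosen with earlier results of these data known. Named genes were the 10 members, genes of their domains, other listed imprinted genes with an unadjusted p under 0.05, the 5 other listed imprinted genes with the highest mean, the 2 highest genes of each marker list and the 3 recovered genes nearest to a member whose libraries differed by 1.5-fold or more; all others were chosen after their values were seen. One gene that the rule names is not reported here.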

Additional observations from a re-analysis of the deposited data

How the results depend on the processing

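Of 54 recomputed ratios of single members, under a pseudocount of 1, other scalings or 1 library left out, all moved by less than the spread between libraries (for members without recovered libraries, the median within-group SD of 0.13 on the log2 scale). That outcome was nearly fixed in advance and does not show that a ratio is steady. Leaving out 1 of 3 libraries shifts a mean by less than their spread, and each scaling adds a constant. Dlk1 went from 0.99 to 1.67 without control library A, beside a spread of 0.69. Medians over members have no spread of their own to be set against. The count of called members, and that of the wider list, was 1 in place of 0 when the authors' deposited table was read at p under 0.05 without adjustment. The median log2 ratio of maternally expressed members was 0.17, but 0.0229 over all such genes of the wider list, and the mean over the members was 0.29. For paternally expressed members the mean was 0.14 where the median was -0.000114, with Dlk1 at 0.99; the cause of the other shifts was not tested. limma called 0 genes under each setting run, with 211 genes at an unadjusted p under 0.05, between 149 without control library A and 381 without control library C, and 726 of 23365 with no filter. A fit on genes with exactly 1 combination in both groups, added after seeing the data, gave 168 of 8007. Dividing means by their sum added 0.032 to every log2 ratio. No paired analysis was possible because the recovered libraries carry no replicate number. The smallest adjusted p over these fits was 0.0704. Means above 1000 hold no library spread, so Igf2, Meg3, Rian, Peg3 and Ndn have no error here.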

Other observations

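The imprinted genes outside the domains above with the highest means were Rasgrf1, Peg13, Nap1l5, Impact and Ago2. Rasgrf1, a nucleotide exchange factor gene of neurons, had a mean count of 4471 in Ovp and 5137 in Ctrl cortex, Peg13 of 4192 and 4471, Nap1l5 of 4001 and 4123, Impact, a regulator of the eIF2 kinase GCN2, of 3502 and 3599, and Ago2, an effector of microRNAs, of 2934 and 3136. Each was lower in overexpression cortex and none passed the authors' test. Nnat, a small membrane protein gene of developing neurons, singled out after its values were seen, had 1201 in Ovp and 940 in Ctrl cortex (p = 0.307, the authors' deposited table).

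Among 10305 recovered genes, those nearest to H19 over the 6 libraries were an unannotated transcript, Mlxipl and Gm36823. The mean absolute difference from H19, of log2(value + 1) after removing each gene's own mean, was 0.107 for Mlxipl and 0.111 for Gm36823. Mlxipl, which encodes the glucose-responsive transcription factor ChREBP, was at 77.4, 108 and 94.2 in overexpression libraries A, B and C, and at 48.9, 69.1 and 77.2 in control libraries A, B and C. Control library A was its lowest too. Those nearest to Dlk1 were Gm12059, 1810014B01Rik and Tmem37, with differences of 0.163, 0.176 and 0.2003. Near matches over 6 values among so many genes carry no test.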
